A study of Arabidopsis thaliana with 6 samples.

Results

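Loss of RDR6 in the ddm1 background was examined through the transcript models of transposable elements (TEs) in the library titled ddm1 rdr6 and in the library titled ddm1. Models of either library that shared at least 1 bp of exon on the same strand were joined into a locus, which gave 94 loci out of 344 in all 6 libraries of the series. The tissue was inflorescence of stages 1 to 12, that is, flower buds not yet mature, from Columbia plants of Arabidopsis thaliana grown under 16 h days at 22 °C. Both genotypes carried the ddm1 mutation, and ddm1 rdr6 also carried a mutation of RDR6. The other libraries were ddm1 polV, ddm1 rdr6 polV (replicates A and B) and wild type (wt). Each of the 2 genotypes compared had 1 library, sequenced in the same MinION round after 14 PCR cycles from 50 ng of poly(A) RNA, so no difference given here has a replicate check. The sources used here name neither the alleles nor how many plants were pooled. The deposited models cover TE loci alone, so the mutated genes themselves and markers of flower tissue were not analysed here.

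DDM1 is a chromatin remodeler that maintains DNA methylation over TEs, and many TEs are transcribed when it is lost. RDR6 copies RNA, often after cleavage directed by a microRNA, into double-stranded RNA from which Dicer enzymes cut small interfering RNAs. In ddm1 mutants many TE transcripts are known to enter this pathway, so the comparison asks which TE transcripts are recovered when it is absent.

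Each model represents a cluster of at least 10 long reads, and the number of reads in the cluster, taken from the model's name, is called cluster reads here. Library totals are unknown, so a ratio between the libraries holds any difference in depth as well as in transcript abundance, and these cannot be told apart. Cluster reads of all TE models summed to 3128 in ddm1 rdr6 and 1212 in ddm1, a ratio of 2.58 (95% interval 2.41 to 2.76), and model numbers were 107 and 48. The intervals of read ratios and shares are exact binomial ones and cover counting error only. Those of reads take each read as independent. PCR reads without molecular identifiers are not independent molecules, so these intervals may be too narrow. A missing model means that no cluster reached 10 reads, and a transcript may still have been present.

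Sequences that carry the results are shown first. They were read from the reference genome (RefSeq, build TAIR10.1) at the positions of the deposited models (TAIR10), and positions are 1-based. Unspliced transcripts of several loci began alike. The first 60 nt of 8 of them, with the letters GGGGAT in capitals where present, were:
AT1TE47605, chr1:14459820-14459879, plus strand: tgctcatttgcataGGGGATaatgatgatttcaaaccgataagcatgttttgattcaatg
AT2TE20940, chr2:5092891-5092950, plus strand: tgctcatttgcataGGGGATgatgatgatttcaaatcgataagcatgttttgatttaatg
AT4TE15420, chr4:3386257-3386316, plus strand: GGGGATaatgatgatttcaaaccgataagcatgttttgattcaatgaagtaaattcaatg
AT5TE44730, chr5:12628385-12628444, minus strand: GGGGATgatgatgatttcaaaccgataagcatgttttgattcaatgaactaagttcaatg
AT2TE16800, chr2:3953489-3953548, plus strand: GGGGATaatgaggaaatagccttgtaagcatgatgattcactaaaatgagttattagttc
AT4TE16900, chr4:3841555-3841614, minus strand: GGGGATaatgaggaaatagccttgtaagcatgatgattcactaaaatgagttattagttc
AT2TE20330, chr2:4956185-4956244, plus strand: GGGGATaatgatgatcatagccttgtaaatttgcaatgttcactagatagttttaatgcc
AT1TE54480.1, chr1:16512684-16512743, minus strand: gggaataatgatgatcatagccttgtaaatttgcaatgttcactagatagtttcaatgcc
Among spliced transcripts, 7 loci shared an intron end that was followed by the same 6 exon bases. The last 14 intron bases and the first 6 exon bases, with the intron's AG in capitals, were:
AT2TE22040, acceptor of intron 4: tctttgtgtttcAGtgtgag
AT2TE23705, acceptor of intron 4: tttttctgttgtAGtgtgag
AT3TE60280, acceptor of intron 3: tgtttctgttgtAGtgtgag
AT5TE51685, acceptor of intron 5: tctttgtgtttcAGtgtgag
AT1TE44450, acceptor of intron 4: tgtttctgttgtAGtgtgag
AT1TE44630, acceptor of intron 3: tttatgtgtttcAGtgtgag
AT1TE65060, acceptor of intron 4: gaacttggttgtAGtgtgag
The first 4 of these loci had a model in ddm1 rdr6 and none in ddm1, and the other 3 had models in both libraries. The 60 nt before the start of 6 loci, chosen to show the letters TATAAA (in capitals), were:
AT3TE60425, chr3:14791414-14791473, minus strand: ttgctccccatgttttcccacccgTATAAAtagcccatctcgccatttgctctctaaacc
AT2TE19610, chr2:4727500-4727559, plus strand: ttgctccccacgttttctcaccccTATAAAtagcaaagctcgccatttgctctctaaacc
AT1TE45375, chr1:13841658-13841717, minus strand: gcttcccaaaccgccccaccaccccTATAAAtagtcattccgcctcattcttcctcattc
AT4TE15820, chr4:3506699-3506758, minus strand: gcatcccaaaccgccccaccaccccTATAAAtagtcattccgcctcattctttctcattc
AT5TE39850, chr5:10957874-10957933, plus strand: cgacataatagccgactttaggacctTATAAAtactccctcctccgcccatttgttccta
AT3TE53850, chr3:13168199-13168258, plus strand: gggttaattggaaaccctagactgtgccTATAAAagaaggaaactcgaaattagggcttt

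Most loci of the 2 libraries had a model in ddm1 rdr6 alone or in both. A model was present in ddm1 rdr6 and absent from ddm1 at 50 of the 94 loci (53.2%), present in both at 42, and present in ddm1 and absent from ddm1 rdr6 at 2 (2.13%). The 50 loci held 928 of the 3128 cluster reads of ddm1 rdr6 (29.7%, Clopper-Pearson 95% interval 28.1 to 31.3). The 42 shared loci held the other 2200 in ddm1 rdr6, against 1173 of 1212 in ddm1 (96.8%).

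The loci found in ddm1 rdr6 alone were weakly represented. Each had exactly 1 model, with 10 to 50 reads and a median of 14, and 19 of the 50 had 10 to 12 reads. At the shared loci, reads per locus had a median of 34.5 in ddm1 rdr6 and 21 in ddm1. If 10 reads in ddm1 are scaled by the ratio of summed reads, the matching minimum in ddm1 rdr6 is 26 reads, which 11 of the 50 loci reached. The summed reads include those of the 50 loci. Scaled by the ratio of reads at the shared loci alone (1.88, 1.75 to 2.01), the minimum is 19 reads, which 18 of the 50 reached. With 26 reads required of every ddm1 rdr6 model, 11 loci were in ddm1 rdr6 alone and 19 in ddm1 alone. With 19 reads required, the numbers were 18 and 15, so the excess of loci in ddm1 rdr6 alone depends on the read minimum. Below these minimums, a model missing from ddm1 was not distinguishable at this depth from a locus with the ratio used. At a minimum, the matching number in ddm1 is the floor of 10 reads itself. Counting error can therefore leave a locus at or somewhat above it without a model in ddm1, and reaching a minimum does not show a difference.

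The 11 loci of 26 reads or more include some of the longest transcripts of the comparison. AT3TE56640 (chr3:13806710-13808819, plus strand, outside annotated genes) had 50 reads in ddm1 rdr6, as a single exon of 2110 nt. AT4TE50435 (chr4:10993329-10995079, plus strand, pseudogene AT4G20365) had 44 reads in 2 exons and 1620 nt, and its translation matched a Copia protein at 25.1% identity. Copia elements are retrotransposons that copy themselves through RNA. AT2TE20330 (chr2:4956185-4958205, plus strand, outside annotated genes) had 41 reads as a single exon of 2021 nt and starts with the GGGGAT letters shown above. AT2TE42810 (37 reads), AT2TE15880 (35) and AT4TE25050 (34) followed. AT1TE54480.2 and AT2TE07745 had 28 reads each and AT5TE39850 had 27. The translated match of AT2TE07745 (40.4% identity) was to a CACTA protein, that is, to the transposase of a DNA transposon class that moves by excision.

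Sadhu elements, which are non-autonomous retroposons, made up 3 of the 50 loci and 2 of the 42. SADHU3-2 (AT3TE60310, chr3:14749396-14750321, minus strand) had 32 reads in ddm1 rdr6, SADHU5-1 (AT4TE03410) 25 and SADHU7-1 (AT3TE18450) 10, and none of them had a model in ddm1. SADHU3-1 (AT3TE63935) had 159 reads in ddm1 rdr6 and 79 in ddm1, and SADHU1-1 (AT2TE16940) had 114 in ddm1 rdr6 and 60 in ddm1. All 5 were unspliced and lay in annotated pseudogenes. SADHU5-1 also had a model in wt, with 11 reads, so a model of it was present without either mutation, and SADHU1-1 had one in wt with 56 reads.

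**Figure D1:**
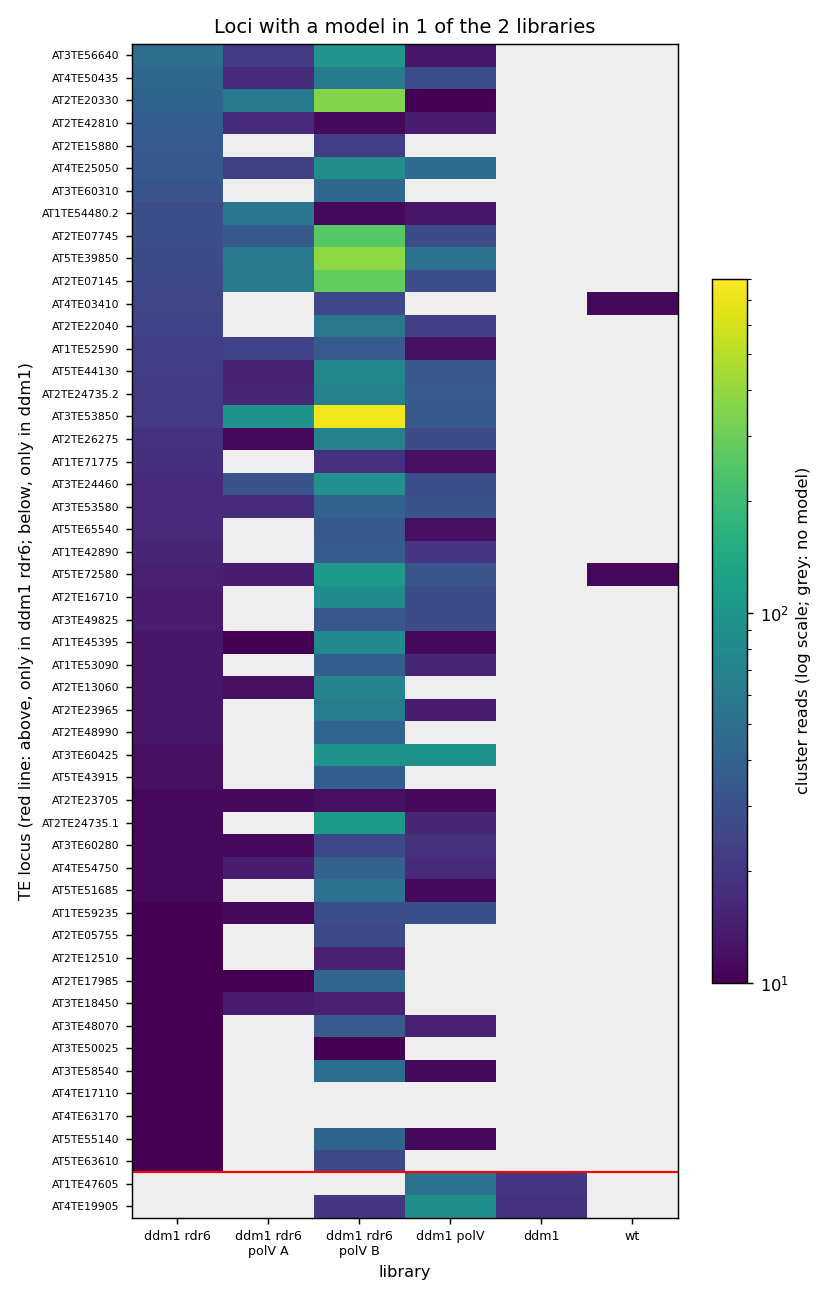
Cluster reads (colour, log scale, grey where a library had no model) in each of the 6 libraries for the 50 loci with a model in ddm1 rdr6 and none in ddm1 (above the red line, sorted by reads in ddm1 rdr6) and the 2 loci with the opposite pattern (below it). Of the 50 loci, 36 also had a model in ddm1 polV, 48 in ddm1 rdr6 polV B and 2 in wt.

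Most of these loci were seen again in other libraries. Of the 50, 36 (72.0%, Clopper-Pearson 95% interval 57.5 to 83.8) also had a model in ddm1 polV, where RDR6 is intact, 25 had one in ddm1 rdr6 polV A and 48 in replicate B, which was sequenced alone in a second round, more deeply per the labels and after 13 PCR cycles. Of the 42 shared loci the counts were 38, 32 and 41 in the same libraries. AT4TE17110 and AT4TE63170, with 10 reads each, had no model in any other library. At 11 loci, models were found in at least 2 of the 3 libraries with the rdr6 mutation and in no other library, with 10 to 35 reads in ddm1 rdr6: AT2TE05755, AT2TE12510, AT2TE13060, AT2TE15880, AT2TE17985, AT2TE48990, SADHU7-1, AT3TE50025, SADHU3-2, AT5TE43915 and AT5TE63610. All 11 had a model in replicate B and 3 had one in replicate A. Replicate B had 432 models in all, against 91 in replicate A and 145 in ddm1 polV. Since replicate B held 48 of the 50 loci, a model there adds little to the choice of the 11. Of the 11 loci, AT2TE15880 and SADHU3-2 exceeded the scaled minimum of 26 reads.

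The loci of ddm1 rdr6 alone were more often spliced and longer than the shared loci, with intervals that overlap. Spliced models were found at 32 of 50 loci (64.0%, 49.2 to 77.1) among those in ddm1 rdr6 alone. Among shared loci they were found at 20 of 42 in the ddm1 rdr6 library (47.6%, 32.0 to 63.6) and at 17 of 42 in the ddm1 library (40.5%, 25.6 to 56.7). Models with 4 or more exons were present at 9 of 50 loci and at 5 of 42 shared loci in ddm1 rdr6. The longest model of a locus, introns left out, had a median of 914 nt (order-statistic 95% interval over loci 776 to 1431) at loci of ddm1 rdr6 alone. The median at shared loci was 666.5 nt (592 to 819) in ddm1 rdr6 and 636 nt (576 to 698) in ddm1. A length of 1000 nt or more was reached by 23 of 50 loci and by 12 of 42 shared loci in ddm1 rdr6. With 26 reads required of every ddm1 rdr6 model, the spliced shares lay closer together. They were 54.5% (6 of 11, 23.4 to 83.3) for ddm1 rdr6 alone and 48.0% (12 of 25, 27.8 to 68.7) for shared loci. The median lengths were then 1023 nt (592 to 2110) and 652 nt (633 to 902) in the same order.

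**Figure D2:**
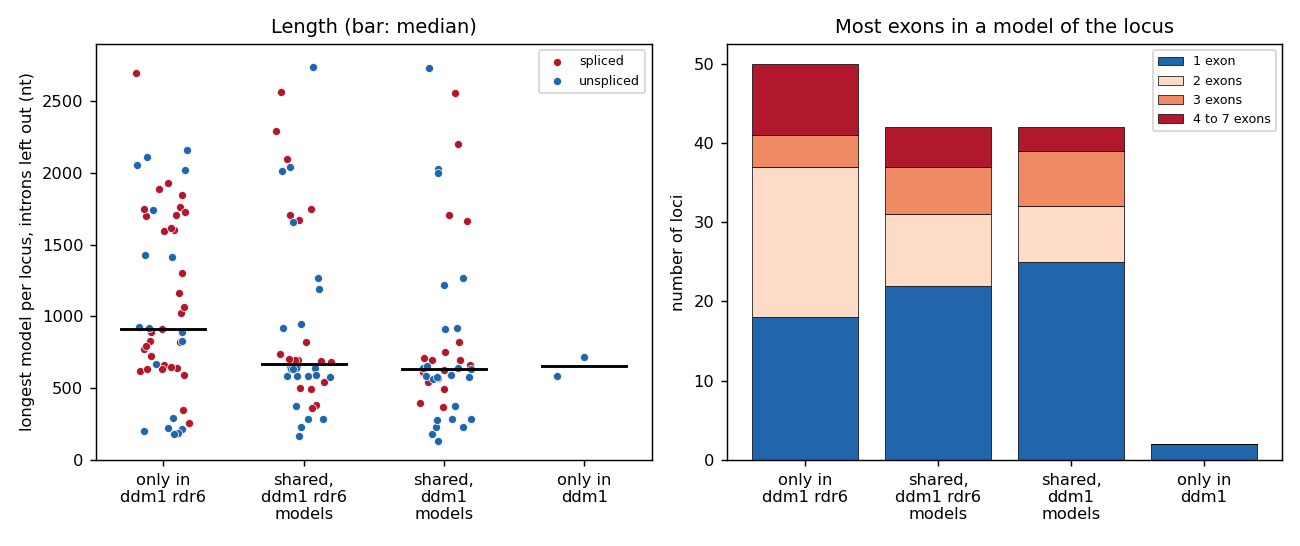
Left, length in nt of the longest model per locus without its introns (points, coloured by splicing; bars, medians); right, number of loci by the most exons in a model, for loci in ddm1 rdr6 alone, shared loci in each library and loci in ddm1 alone. Medians were 914 nt for the 50 loci in ddm1 rdr6 alone, and 666.5 nt in ddm1 rdr6 and 636 nt in ddm1 for the 42 shared loci.

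The introns were of the usual kind. Read on the strand of the model, all 64 introns at loci of ddm1 rdr6 alone had GT and AG ends, and 63 of them were found again in ddm1 rdr6 polV B and 54 in ddm1 polV. AT5TE51685 (chr5:14380262-14383184, plus strand, pseudogene AT5G36655) had the most exons, 7, with 11 reads in ddm1 rdr6, and matched a CACTA protein at 25.7% identity. AT2TE22040 (24 reads) and AT2TE23705 (11 reads) had 6 exons each, and AT1TE42890 (16 reads), AT3TE60280 (11 reads) and AT5TE65540 (17 reads) had 5.

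A splice junction with the same exon bases was shared by 7 of the 52 spliced loci. The intron end followed by tgtgag, printed above, occurred at AT2TE22040, AT2TE23705, AT3TE60280 and AT5TE51685, which had models in ddm1 rdr6 and none in ddm1, and at AT1TE44450, AT1TE44630 and AT1TE65060, which were shared. At 6 of the 7 an upstream intron ended before gtttga, and at 5 of them a downstream intron ended before gttgct, so 5 loci (AT1TE44630, AT1TE65060, AT2TE22040, AT2TE23705 and AT5TE51685) held all 3 junctions. Only 1 pair of the 7, AT1TE65060 and AT2TE23705, was alike enough to form a sequence group (98.1% identity, groups needed 80% identity across 80% of the shorter model). Reads at AT1TE44450 were 105 in ddm1 rdr6 and 24 in ddm1, and at AT1TE44630 they were 71 in ddm1 rdr6 and 19 in ddm1. AT1TE65060 had 23 reads in ddm1 rdr6 and 36 in ddm1, from models of different shape.

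The shares of loci near the centromeres and in annotated genes had overlapping intervals in the classes. Pericentromeric bins (windows of 500 kb in which protein-coding genes cover under 40% of the sequence) held 37 of 50 loci of ddm1 rdr6 alone (74.0%, 59.7 to 85.4) and 35 of 42 shared loci (83.3%, 68.6 to 93.0). An annotated pseudogene on the same strand was overlapped by 31 of 50 loci of ddm1 rdr6 alone and by 23 of 42 shared loci, and a protein-coding gene by 4 and 2 in the same order. The 4 were AT1TE59235, AT4TE63170, AT5TE55140 and AT5TE72580, with 10 to 15 reads in ddm1 rdr6; whether reads of the host gene enter these models was not tested. A protein match was found at 9 of 50 loci of ddm1 rdr6 alone, 4 of them CACTA, 3 Copia, 1 MuDR and 1 PIF, and at 3 of 42 shared loci, 2 of them MuDR and 1 a reverse transcriptase. Identity was 97.6 to 98.8% for MuDR and 70.5% for the reverse transcriptase. It was 25.7 to 40.4% for CACTA, 25.1 to 26.9% for Copia and 23.2% for PIF, so these classes rest on distant matches.

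Reads at the shared loci were mostly higher in ddm1 rdr6. They were higher at 34 of 42 loci (81%), lower at 7 (16.7%) and equal at 1. The median ratio was 1.61, or 0.69 on the log2 scale (order-statistic 95% interval over loci 0.26 to 1.15), with an SD of 0.90 over loci. The interval of the ratio lay above 1 at 19 loci, below 1 at 2 and included 1 at 21. Over 2-fold above the median ratio were 6 loci (14.3%) and over 2-fold below it another 6 (14.3%).

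The shared locus with the most reads was AT4TE16900 (chr4:3839420-3841614, minus strand, outside annotated genes), with 413 reads in ddm1 rdr6 and 186 in ddm1, a ratio of 2.22 (1.86 to 2.65). AT3TE67445 (pseudogene AT3G45360) had 117 reads in ddm1 rdr6 and 27 in ddm1. AT4TE15820 (pseudogene AT4G06566) had 100 in ddm1 rdr6 and 39 in ddm1. AT4TE67560, whose translation matched a MuDR protein of the Mutator DNA transposons, had 70 in ddm1 rdr6 and 32 in ddm1. At all 4 the interval of the read ratio lay above 1, with depth not taken into account. Against the ratio of summed TE reads, 2.58, the ratio of AT3TE67445 was higher (4.33). Those of AT4TE16900 (2.22), AT4TE15820 (2.56) and AT4TE67560 (2.19) were lower.

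The highest ratio was at AT1TE54480.1 (chr1:16510699-16512743, minus strand), a single exon with 62 reads in ddm1 rdr6 and 12 in ddm1 (5.17, 2.76 to 10.5). AT1TE44450 followed (4.38, 2.79 to 7.13), then AT3TE67445 (4.33, 2.83 to 6.85). AT4TE25065 had 51 reads in ddm1 rdr6 and 12 in ddm1 (4.25, 2.24 to 8.76), and AT1TE45375 had 49 in ddm1 rdr6 and 12 in ddm1 (4.08, 2.14 to 8.43). Of these 5 loci, all but AT1TE54480.1 were spliced in both libraries.

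The lowest ratio was at AT3TE51150 (chr3:12349040-12349861, plus strand), which overlaps QQS, a protein-coding orphan gene known to affect starch content. It had 15 reads in ddm1 rdr6 and 39 in ddm1 (0.385, 0.197 to 0.714). AT2TE16800 (chr2:3953489-3954131, plus strand) had 29 reads in ddm1 rdr6 and 55 in ddm1 (0.527, 0.324 to 0.841). At the next loci, AT1TE65060, AT4TE23345 (10 reads in ddm1 rdr6, 15 in ddm1) and AT4TE15420 (23 reads in ddm1 rdr6, 33 in ddm1), the intervals of the ratio included 1.

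Spliced shared loci had a higher median ratio than unspliced ones in these 2 libraries, though the intervals overlap. At the 17 loci spliced in both libraries, reads summed to 884 in ddm1 rdr6 and 360 in ddm1, and 15 of the 17 were higher in ddm1 rdr6. Their median log2 ratio was 1.32 (0.68 to 1.90). At the 22 loci unspliced in both, reads summed to 849 in ddm1 rdr6 and 580 in ddm1, 17 were higher in ddm1 rdr6, and the median log2 ratio was 0.26 (0.08 to 0.71). The split by splicing was made after the ratios were seen and has no test, since loci of 1 library are not replicates. Among pericentromeric loci alone the medians were 1.32 for spliced and 0.26 for unspliced loci, and among loci under 1000 nt they were 1.13 and 0.14. With at least 20 reads in ddm1 they were 1.34 (-1.38 to 2.13) for 8 spliced loci and 0.42 (-0.14 to 0.93) for 12 unspliced loci, so the first interval includes 0 and all of the second.

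Among the loci unspliced in both libraries, those with 1 start sequence had lower ratios than the rest. The letters GGGGAT, searched on the transcript's strand in its first 60 genomic nt, were found at 9 of the 22 loci, and at 106 of 27443 reference protein-coding mRNAs (0.386%). At these 9 loci reads summed to 231 in ddm1 rdr6 and 250 in ddm1 (0.924, 0.769 to 1.11), and 4 of the 9 were higher in ddm1 rdr6. At the other 13 unspliced loci reads summed to 618 in ddm1 rdr6 and 330 in ddm1 (1.87, 1.64 to 2.15), all 13 were higher in ddm1 rdr6, and the median log2 ratio was 0.70 (0.14 to 1.41), an interval that overlaps that of the spliced loci. AT4TE16900 also starts with GGGGAT but had a spliced model in ddm1 rdr6 and so is in neither count. That model had 14 reads and an intron that began with AA, without the usual splice site. The lead model of AT4TE16900, with 322 of its 413 reads, was unspliced. With AT4TE16900 added to the 9, the sums were 644 in ddm1 rdr6 and 436 in ddm1 (1.48, 1.31 to 1.67), so this 1 locus sets on which side of 1 the ratio falls. GGGGAT was also found at 3 loci of ddm1 rdr6 alone, AT3TE56640 (50 reads), AT2TE20330 (41) and AT1TE54480.2 (28), and at AT1TE47605, found in ddm1 alone with 20 reads. Over all 14 loci with the letters, reads summed to 763 in ddm1 rdr6 and 456 in ddm1. AT1TE54480.1, which begins with gggaat in place of GGGGAT, had the highest ratio of all. It is counted among the other 13, although it is a copy of AT2TE20330 (90.5% identity), which has the letters. The summed reads of the 9 and the 13 thus change with where these 2 loci, AT4TE16900 and AT1TE54480.1, are placed. The median log2 ratio was 0 (-0.52 to 0.25) at the 9 loci and 0.04 (-0.52 to 0.60) with AT4TE16900 added. Both intervals overlap that of the 13. Over all 94 loci, GGGGAT was found at 14 of 44 loci with an unspliced lead model and at 0 of 50 with a spliced one, a share of up to 7.11% (Clopper-Pearson). The letters were chosen after the sequences and ratios were seen, and the 9 loci belong to 2 groups of copies, so they are not independent.

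**Figure D3:**
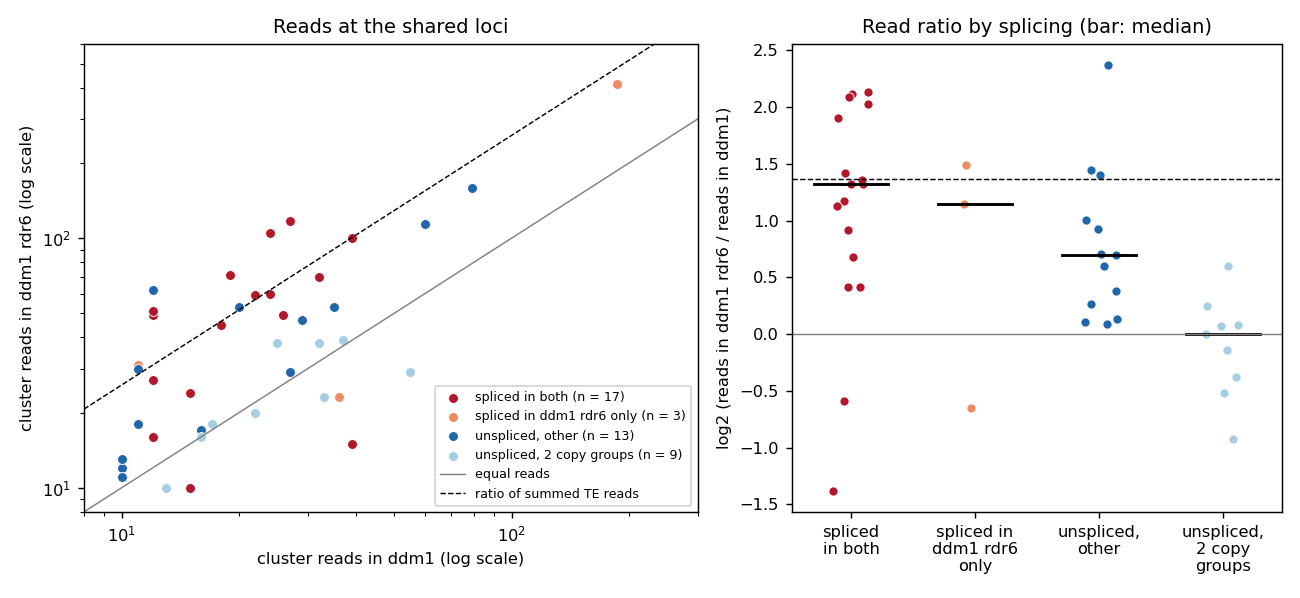
Left, cluster reads in ddm1 rdr6 against ddm1 at the 42 shared loci (both axes log scale; solid line, equal reads; dashed line, ratio of summed TE reads, 2.58); right, log2 read ratio by splicing (points, loci; bars, medians), where the 2 copy groups are the 9 unspliced loci that start with the letters named in the text. The 13 other unspliced loci all lie above 0 and the 9 copies are centred on 0, while the 17 loci spliced in both have a median of 1.32.

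Described by groups of copies with similar sequence, the same loci gave the following sums. The AT1TE47605 group had 7 unspliced copies of 92.0 to 95.1% identity. AT1TE47605 (chr1:14459820-14460402, plus strand) itself had no model in ddm1 rdr6 and 20 reads in ddm1, and was the 1 locus of ddm1 without a model in any library with the rdr6 mutation. Its 6 copies had 10 to 39 reads in ddm1 rdr6 and 13 to 37 in ddm1. Summed over the group, reads were 126 in ddm1 rdr6 and 158 in ddm1. The other locus of ddm1 alone, AT4TE19905 (chr4:4757224-4757943, plus strand, pseudogene AT4G07936), had no model in ddm1 rdr6, 19 reads in ddm1 and 88 in ddm1 polV.

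The AT2TE16800 group had 4 copies, with 518 reads in ddm1 rdr6 and 298 in ddm1, of which AT4TE16900 made up 413 in ddm1 rdr6 and 186 in ddm1. The spliced AT3TE67445 group had 3 copies, each higher in ddm1 rdr6, with 227 reads in ddm1 rdr6 and 61 in ddm1 (3.72, 2.79 to 5.02). In the spliced, MuDR-like AT1TE27295 group, reads were 164 in ddm1 rdr6 and 56 in ddm1, and 1 of the 3 copies, AT4TE25050, had no model in ddm1. In the spliced AT2TE05755 group, 4 of 5 copies had no model in ddm1, and reads were 90 in ddm1 rdr6 and 12 in ddm1. A copy without a model adds no reads to its sum, which widens such differences. In all, 34 loci fell into 11 groups, and aligned reads could be split among near-identical copies, so values of a single copy are uncertain.

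**Figure D4:**
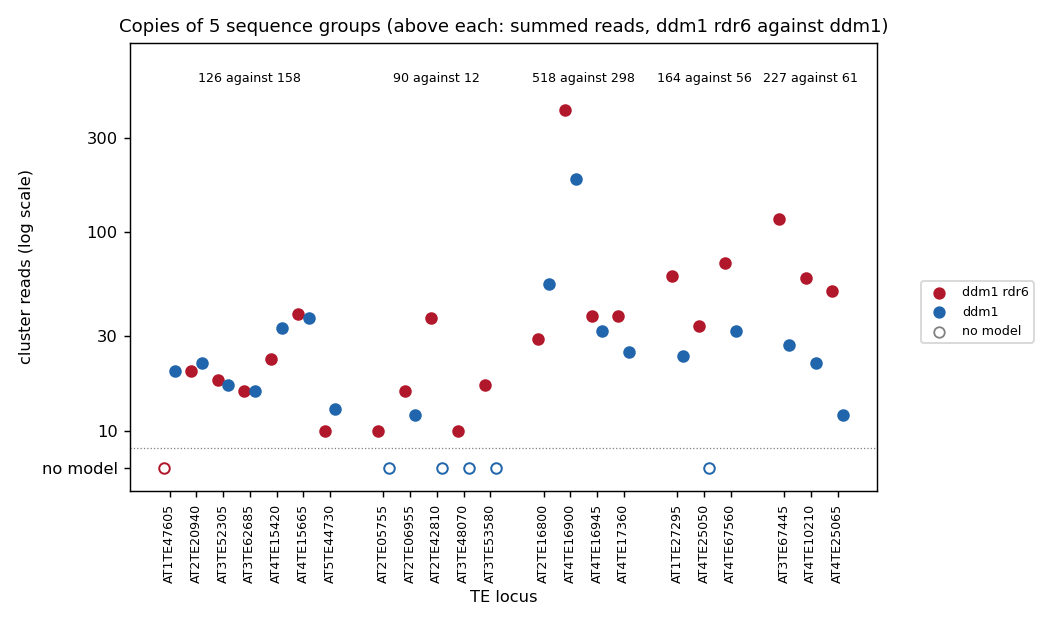
Cluster reads (log scale) in ddm1 rdr6 and in ddm1 at each copy of the 5 sequence groups with at least 3 loci; open circles mark copies without a model in that library. Points of the first group overlap (126 reads in ddm1 rdr6 and 158 in ddm1), while all 3 copies of the last group are higher in ddm1 rdr6 (227 reads against 61 in ddm1).

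The other mutant libraries gave these values over ddm1, which is shared as the denominator, at the loci that had a model in each library. The numbers of spliced and unspliced loci were 16 of 17 and 20 of 22 in ddm1 polV, 14 of 17 and 15 of 22 in ddm1 rdr6 polV A, and 17 of 17 and 21 of 22 in replicate B, so the medians leave out loci without a model. In ddm1 polV the median log2 ratio was 1.74 at loci spliced in both and 0.65 at those unspliced in both. In ddm1 rdr6 polV A it was 0.80 and 0 in the same order, and in replicate B 3.17 and 1.15. Reads of the AT1TE47605 group were 297 in ddm1 polV, and 51 (A) and 413 (B) in the triple mutant. Because ddm1 enters every ratio, its own reads at these loci move all of them together.

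More transcript forms were recovered in ddm1 rdr6 at 9 shared loci and fewer at 0. AT1TE44450 (chr1:13573914-13576541, minus strand, pseudogene AT1G36190) had 4 models in ddm1 rdr6 and 1 in ddm1. They had 66, 16, 12 and 11 reads, and differed in their ends and, in 1 model, by an intron kept in the transcript. The other 8 loci, AT1TE27295, AT1TE45375, AT2TE15660, AT2TE19610, AT3TE63935, AT4TE16900, AT4TE20245 and AT5TE39315, had 1 model more in ddm1 rdr6. All 9 had more reads in ddm1 rdr6 (964 in ddm1 rdr6 and 400 in ddm1), and a further model needs a further 10 reads, so depth and number of forms cannot be told apart.

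The main transcript form was mostly the same in both libraries. Of 18 shared loci with an intron in the model with most reads in either library, 16 had the same introns there, and at the other 24 this model was unspliced in both. Its start and its end both lay within 50 nt at 38 of 42 loci. All 32 introns of the ddm1 models were found again in ddm1 rdr6, whose models at shared loci had 42.

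AT1TE65060 (chr1:19676791-19679899, plus strand, pseudogene AT1G52850) was an exception. Its ddm1 rdr6 model had 6 exons and 1749 nt (23 reads), while the ddm1 model was a single exon of 183 nt (36 reads) that began 2926 nt farther 3′ and ended at the same base. Its copy AT2TE23705 also had 6 exons in ddm1 rdr6. In QQS, the ddm1 rdr6 model had 4 exons and the ddm1 model 3. The added intron of 78 nt (chr3:12349194-12349271, plus strand) was also present in ddm1 polV and in both replicates of ddm1 rdr6 polV. Its ends, with GT and AG in capitals, were:
QQS added intron, 6 exon and 10 intron bases: agatctGTacccaaac
QQS added intron, 14 intron and 6 exon bases: tgttgttgttccAGgttata
AT5TE39315 had, besides a single-exon form in both libraries, a spliced form of 738 nt in ddm1 rdr6 (11 reads). AT4TE16900 had a form of 2099 nt in ddm1 rdr6 (14 reads) whose intron began with AA and so lacked the usual splice site. The same intron was also present in ddm1 rdr6 polV B.

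**Figure D5:**
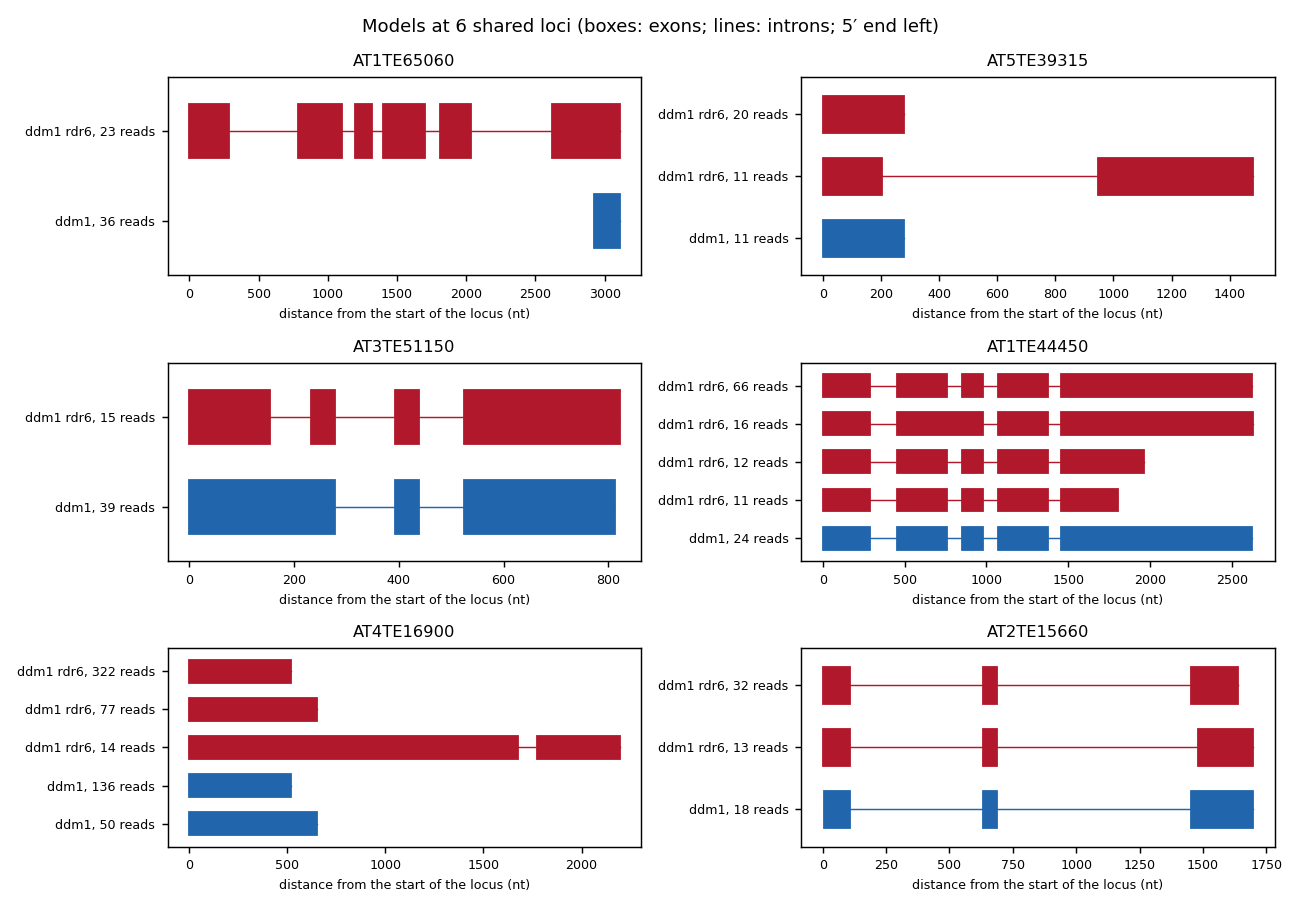
Transcript models at 6 shared loci, drawn to scale with the 5′ end at the left (boxes, exons; lines, introns; x axis, distance from the start of the locus in nt), ddm1 rdr6 above ddm1 in each panel. AT1TE65060 has 6 exons in ddm1 rdr6 and 1 in ddm1, AT1TE44450 has 4 models in ddm1 rdr6 and 1 in ddm1, and the first intron of AT3TE51150 (QQS) is absent from its ddm1 model.

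The letters TATAAA lay at a narrow distance before the start of transcripts in both classes. Searched on the transcript's strand in the 50 nt before the start, they were found at 9 of 50 loci of ddm1 rdr6 alone and at 7 of 42 shared loci (18.0%, 8.58 to 31.4, and 16.7%, 6.97 to 31.4), intervals that include the share of reference protein-coding mRNAs with them (3020 of 27443, 11%). AT2TE24735.2, of ddm1 rdr6 alone, had the letters 53 nt before its start, outside the window. At all 16 the first base lay 31 to 36 nt before the start, so 17.0% of the 94 loci (10.1 to 26.2) had the letters in this window, against 756 of 27443 reference mRNAs (2.75%). The window was set after the positions were seen. As printed above, AT3TE60425 (found in ddm1 rdr6 alone, 12 reads) and AT2TE19610 (49 reads in ddm1 rdr6, 26 in ddm1) were alike around these letters, as were AT1TE45375 and AT4TE15820, both shared. At the 3′ end, 6 or more A within the 10 nt after the model were seen at 0 of 50 loci of ddm1 rdr6 alone and at 2 of 42 shared loci, against 12.6% of the reference mRNAs. That window opens after the model's end, so a genomic run of A inside the end of a model is not counted. Models of AT2TE16800, AT4TE16900 and SADHU3-2, among others, ended in such a run. How often this occurs was not compared with the reference mRNAs, so the shares do not show that such runs are rare.

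Complementarity to microRNAs was rare. Sites were scored against 350 mature sequences of the reference annotation, with 1 for a mismatch, 0.5 for a G:U pair and double weight at positions 2 to 13 of the microRNA. A penalty of at most 4 was found at 6 of 50 loci of ddm1 rdr6 alone, 1 of 42 shared loci and 0 of 2 loci of ddm1 alone, 7 of 94 together. On the strand opposite to the transcript it was likewise found at 7 of 94, of which 1 was in ddm1 rdr6 alone, 5 were shared and 1 was in ddm1 alone. A penalty of at most 3 was found at 5 of 94 loci on the transcript's strand, 4 of them of ddm1 rdr6 alone, and at 2 of 94 on the opposite strand, 1 of them of ddm1 rdr6 alone. The 5 loci on the transcript's strand all had their best site for miR5021, a microRNA whose sequence is largely a GAA repeat. The best sites, with a penalty of 2, were the same at AT1TE42890, AT5TE65540 and AT3TE50670 and are themselves largely a TTC repeat. AT1TE42890 and AT5TE65540 are copies of each other (96.8% identity), so their sites are not independent. The microRNA (seed, bases 2 to 8, in capitals) and the site (bases facing the seed in capitals) were:
miR5021: tGAGAAGAagaagaagaaaa
AT1TE42890, chr1:13136417-13136436, plus strand: tcttcttcttctTCTTCTTa
AT5TE65540, chr5:18196974-18196993, minus strand: tcttcttcttctTCTTCTTa
SADHU5-1 had a site for miR5636 with a penalty of 3.5.

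No pair of loci overlapped on opposite strands. The nearest such pair, AT1TE45375 (49 reads in ddm1 rdr6 and 12 in ddm1) and AT1TE45395 (13 reads in ddm1 rdr6, no model in ddm1), lay 380 nt apart.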

How the data were processed

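For each library the authors deposited transcript models with exons as positions on the genome, and a list that pairs models with TE identifiers. Per the submitters' processing notes, reads were aligned with minimap2 to TAIR10, and per the file headers pinfish made the models. Versions, cluster settings and library totals are unknown here. The whole number that ends each deposited model name (10 or more) was read as the count of reads in the cluster, which the files do not state. Since the low end of that count is fixed at 10, loci near it can be gained or lost by chance.

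Loci of the ddm1 rdr6 and ddm1 libraries were built with single linkage from 1 bp of exon overlap on 1 strand, and cluster reads were summed per locus. Reference annotation and sequence were TAIR10.1. Splice sites were checked in place of a build comparison: 64 of 64 and 41 of 42 introns of ddm1 rdr6 (at its own and at shared loci), and 32 of 32 of ddm1, were GT-AG. Shares have Clopper-Pearson intervals, and ratios have exact conditional binomial intervals, each at 95%. No p-value is given, since each genotype had 1 library and loci are not replicates. Protein matches used BLAST+ 2.17.0 (translated search, e-value 1e-05, 89 TE proteins), and sequences were read with pysam 0.24.0. Intervals came from scipy 1.17.1 and tables from pandas 2.3.3, under Python 3.11.15. The interval and locus code was tested on simulated data.

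The loci and lists were chosen with earlier results of these data known. The rule for named loci took every locus of ddm1 alone and the 10 of ddm1 rdr6 alone with most reads. It also took the 8 shared loci with most reads, the 5 highest and the 5 lowest ratios, and among loci of ddm1 rdr6 alone the 5 with most exons and the 5 longest. It ended with the 5 largest differences in model number, loci overlapping on opposite strands and the 6 best microRNA sites. Other loci (Sadhu elements, copies in sequence groups, shared splice junctions, loci of the rdr6 libraries), the split by splicing, the GGGGAT letters and the TATAAA window were chosen after their values were seen. Alternatives were another read minimum, spliced models alone, other overlap rules and other centring of ratios.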

Additional observations from a re-analysis of the deposited data

How the results depend on the processing

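No paired analysis was possible because the 2 genotypes compared had 1 library each, so they form at most 1 pair. The same lack leaves no replicate to drop. With a minimum of 20 reads in both libraries, 27 loci were in ddm1 rdr6 alone (85.2% pericentromeric), 19 were shared (68.4%), which turns the order of these shares (74.0% and 83.3%), 2 lay over 2-fold above and 2 below the median ratio, and 1 had more models in ddm1 rdr6. With 26 reads or more required in ddm1 rdr6, the counts were 11 in ddm1 rdr6 alone, 25 shared and 19 in ddm1 alone, with 3 loci above and 2 below the median ratio, and 0 with more and 1 with fewer models in ddm1 rdr6. With 19 or more, a minimum added after seeing the data, 18 loci were in ddm1 rdr6 alone and 15 in ddm1 alone. With multi-exon models alone, 17 loci were shared and 0 were in ddm1 alone, the median log2 ratio was 1.32, 0 loci lay above and 2 below it, and 5 had more models in ddm1 rdr6. The median log2 ratio turned to -0.68 when centred on the ratio of summed TE reads (1 locus above, 15 below) and to -0.21 when centred on loci with a model in wt. Centring takes the same constant from every locus. Another 97 values under other settings stayed within the interval or 1.5 times the main value.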

Other observations

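Open reading frames (the longest ATG to stop on the transcript's strand) had a higher median length at the loci found in ddm1 rdr6 alone, with share intervals that overlap. The longest models of these loci were also longer (median 914 nt, against 666.5 nt at shared loci), and frame length was not adjusted for this. Copies can hold frames of the same length, such as 26 codons at AT2TE20940 and AT3TE62685 (shared) and 132 at AT3TE48070 and AT3TE53580 (ddm1 rdr6 alone). Frames of 100 codons or more were present at 28 of 50 loci of ddm1 rdr6 alone (56.0%, Clopper-Pearson 95% interval 41.3 to 70.0) and at 14 of 42 shared loci (33.3%, 19.6 to 49.5). The median was 108 codons at loci of ddm1 rdr6 alone and 64 at shared loci, and 300 codons or more were reached at 9 and 3 loci in the same order. AT5TE63610 (515 codons, 89.4% of its transcript) and AT1TE42890 (504 codons, 78.6%) had the longest frames among the loci of ddm1 rdr6 alone, and AT1TE52925 (724 codons, 84.8%) among the shared ones. AT1TE71775, AT2TE12510 and AT4TE50435, the 3 loci with a Copia match, had frames of 407, 405 and 395 codons. Whether any frame is translated was not tested.

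GC content of the lead model had a median of 41.6% at loci of ddm1 rdr6 alone and 38.7% at shared loci. The read ratio at shared loci had a Spearman rho of 0.38 with the number of exons in ddm1, 0.29 with length and -0.18 with reads in ddm1 (42 loci of the same libraries, as a description).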
